A study of Homo sapiens with 6 samples.

Results

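Matrix metalloproteinases (MMPs), their tissue inhibitors (TIMPs) and the ADAM sheddases were followed as a set of 10 genes listed by name: MMP1, MMP3, MMP9, MMP14, MMP15, TIMP1, TIMP2, TIMP3, ADAM10 and ADAM17. All 10 were found among the 21462 gene symbols of the count table. The libraries came from A431CT cells, the control line (genotype WT), and from Dsg2KO cells, which carry a CRISPR/Cas9 knockout of DSG2, with 3 libraries of polyA RNA in each condition. A431 is a human epidermoid carcinoma cell line, and both conditions were grown in serum-containing medium without any further treatment. Both lines were received from another laboratory, and whether Dsg2KO is a single clone was not given in the sources used here, so loss of DSG2 and any other difference between the lines cannot be told apart. The study asked how loss of Dsg2 alters the expression and remodeling of the extracellular matrix, and MMPs were among the genes it followed by qPCR.

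MMPs are zinc-dependent proteases that cut collagens, fibronectin, laminins and other matrix proteins. Most are secreted as inactive proenzymes, while the membrane-type MMPs sit on the cell surface and are activated inside the cell by furin-like convertases. TIMPs bind the active site of MMPs, and TIMP2 also bridges MMP14 to proMMP2 on the cell surface, so that it takes part in activation as well as inhibition. ADAM10 and ADAM17 are membrane-bound relatives that release the ectodomains of growth factors, cadherins, Notch receptors and cytokines, and TIMP3 inhibits ADAM17. In migrating keratinocytes MMP1 is known to cut collagen at the wound edge. RNA levels report neither proenzyme activation nor inhibitor binding.

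The libraries held between 12845719 and 16255692 counts. In these bulk samples, fewer cells expressing a gene and less RNA of that gene per cell cannot be told apart. DSG2, the edited gene, was at 323 CPM (counts scaled by TMM to a common library total) in A431CT and 51.9 CPM in Dsg2KO cells, lower as the labels state (log2 fold change -2.64, adjusted p = 1.29e-14 by edgeR). These values measure RNA and not the Dsg2 protein. Of 15 epithelial markers 13 were tested. The summed level of the list was between 12939 and 13598 CPM in A431CT and between 14020 and 14368 CPM in Dsg2KO libraries. Most of this sum was EGFR, at 8446 CPM in A431CT and 9128 CPM in Dsg2KO cells, so it says little about the other markers. The basal keratinocyte genes KRT5 and TP63 were at 630 and 210 CPM in A431CT and at 575 and 207 CPM in Dsg2KO cells, and the desmosomal gene DSP was at 435 and 494 CPM, while KRT14 and PKP1 had 0 to 2 counts per library. Of the tested epithelial markers 1 was called, the keratin gene KRT6A, with a log2 fold change of -1.03. By an adjusted p-value under 0.05 alone 6 were higher and 3 lower, KRT6A included, against 29.6% of all genes tested. Among these, KRT8 and KRT18 had log2 fold changes of 0.31 and 0.35, and SFN had -0.46. The 9 fibroblast markers together reached at most 3.46 CPM in an A431CT and 4.43 CPM in a Dsg2KO library, and PDGFRA and COL1A2 had no count. The 8 immune markers summed to between 241 and 245 CPM in A431CT and between 154 and 167 CPM in Dsg2KO libraries. Nearly all of this was CD68, a lysosomal protein gene that other cells also express, which was called as lower with a log2 fold change of -0.62. LYZ lay the other way, at 2.02 CPM in A431CT and 3.18 CPM in Dsg2KO cells, and was not called. CD3E was at 0. The 5 endothelial markers summed to between 8.52 and 11.5 CPM in A431CT and between 15.1 and 15.7 CPM in Dsg2KO libraries, and PECAM1 and CDH5 passed as higher. The part of the immune and endothelial markers in the results was not tested.

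In all, 12857 genes were tested. Called genes had to pass both thresholds of the study, which were 0.05 for the adjusted p-value and 0.5 for the size of the log2 fold change. Of the 10 members 7 were tested and 3 (MMP1, MMP3 and MMP9) were too low to judge. One tested member, TIMP2, was called, and it was higher in Dsg2KO cells. For all genes tested 6.03% were called, and 2.99% were called as higher. By the adjusted p-value alone MMP15 was higher and ADAM17 lower as well, which made 3 of 7, against 29.6% of all genes tested. In 4 of the 7 every Dsg2KO library lay on 1 side of every A431CT library, as it did in 42.6% of all genes tested. With only 7 genes these shares are near the background, and nothing is read from them about the set. The median log2 fold change of the 7 was 0.05, and that of all genes tested was -0.0048.

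**Figure D1:**
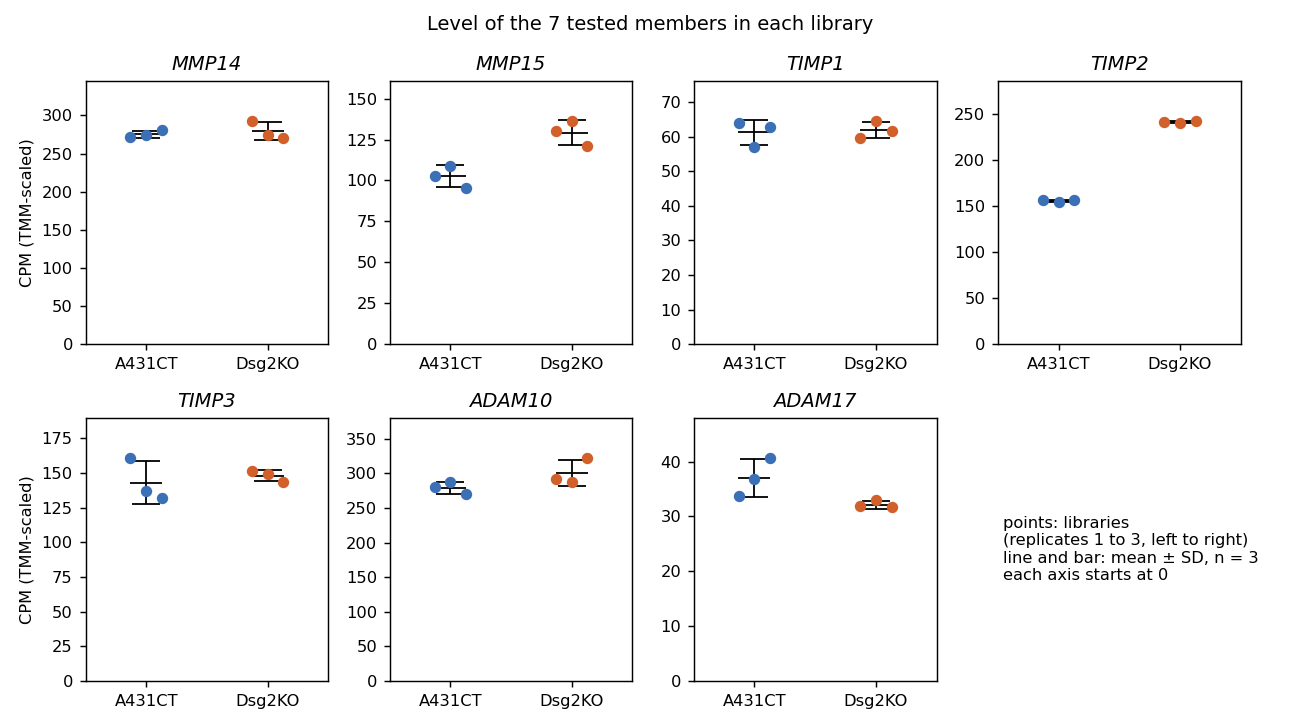
TMM-scaled CPM of the 7 tested members in each library, with 1 panel per gene and axes starting at 0; points are libraries and bars are the mean ± SD (n = 3). The TIMP2 points of the conditions lie far apart, between 154 and 156 CPM in A431CT and between 240 and 242 CPM in Dsg2KO, while the points of MMP14, TIMP1 and TIMP3 overlap.

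The secreted proteases were barely detected in A431 cells under either condition. MMP1, the interstitial collagenase that opens fibrillar collagen, had 3, 4 and 8 counts in the A431CT libraries and 1, 1 and 2 counts in the Dsg2KO libraries. All Dsg2KO counts were thus below all A431CT counts, but they were at or under 3 counts, the floor used here, which corresponds to between 0.183 and 0.236 CPM depending on the library. Summed over the libraries, 15 counts in A431CT stood against 4 in Dsg2KO, a ratio of 0.220 after scaling with an exact 95% interval of 0.0532 to 0.691, which covers counting error only. Without a filter on low counts the difference in MMP1 had an adjusted p-value of 0.147 (edgeR's quasi-likelihood test). MMP3, stromelysin-1, which cuts proteoglycans and activates other proMMPs, had 1 count in the first A431CT library and 0 in the other 5 libraries. Over the 3 Dsg2KO libraries together the floor of 3 summed counts corresponds to 0.0632 CPM. The exact 95% interval of the 0 counts of MMP3 there reaches up to 0.0777 CPM, so no fold is given. MMP9, the gelatinase that cleaves denatured collagen and type IV collagen, had 1, 1 and 3 counts in A431CT and 2, 4 and 0 counts in Dsg2KO libraries. Its ratio over the summed counts was 0.991 with an exact 95% interval of 0.252 to 4.11, which is too wide to tell a rise from a fall. No increase of MMP1 or MMP3 transcripts was detectable at this depth in the Dsg2KO libraries. By qPCR the paper reports higher MMP1 and MMP3 mRNA in Dsg2KO than in A431CT cells. It also reports more MMP1 protein in the Dsg2KO culture supernatant by ELISA. Those are other assays, and the reason for the difference from these counts was not tested.

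**Figure D2:**
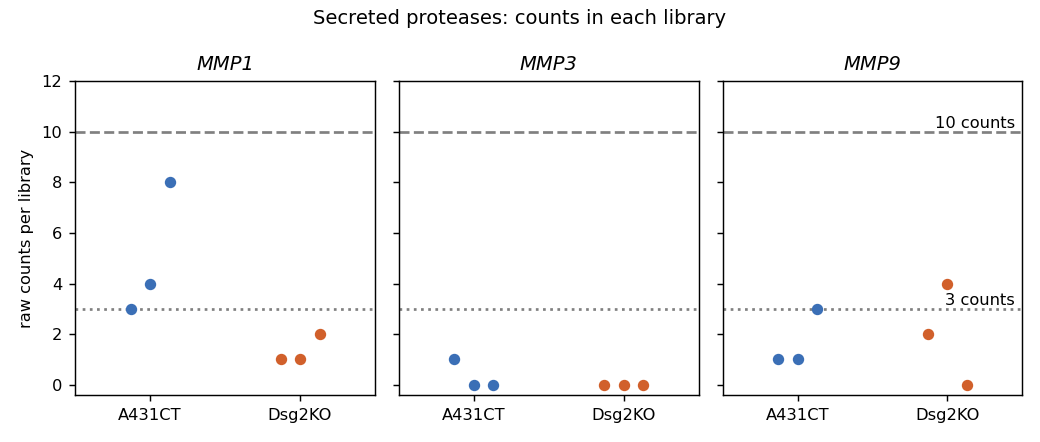
Raw counts of MMP1, MMP3 and MMP9 in each library of A431CT and Dsg2KO cells, with lines at 10 counts (the minimum count of the filter) and 3 counts (the floor). No library reaches 10 counts for any of the 3 genes, and the highest value is 8 counts of MMP1 in an A431CT library.

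MMP1 (chr11:102789401-102798160, minus strand, GRCh38) and MMP3 (chr11:102835801-102843609, minus strand) lie in a cluster of 9 MMP genes that spans positions 102520508 to 102955732 of chromosome 11. In order these are MMP7, MMP20, MMP27, MMP8, MMP10, MMP1, MMP3, MMP12 and MMP13. None of the 9 passed the filter, 3 of them (MMP20, MMP27 and MMP10) had no count, and the highest count of any was the 8 of MMP1. All 6 flanking genes listed passed the filter, at mean levels from 9.28 CPM (DYNC2H1) to 413 CPM (TMEM123) in A431CT cells. YAP1, the coactivator of the Hippo pathway, was at 143 ± 3.11 CPM (SD, n = 3) in A431CT and 147 ± 3.07 CPM in Dsg2KO cells, and TMEM123 was at 413 ± 16.2 and 448 ± 10.18 CPM. None of the 6 was called, and by adjusted p alone TMEM123 was higher, with a log2 fold change of 0.12. MMP9 (chr20:46008908-46016561, plus strand) lies on another chromosome. The median log2 fold change of the 50 tested genes around it, the next 25 with a position on each side, was -0.16. For the 50 around MMP1 it was 0.03.

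The membrane-type MMPs were abundant in both conditions, and MMP15 but not MMP14 passed the adjusted p-value. MMP14 (chr14:22836560-22849041, plus strand), or MT1-MMP, a pericellular collagenase and the main activator of proMMP2, was at 271, 274 and 281 CPM in A431CT and 292, 275 and 271 CPM in Dsg2KO libraries. The ranges overlapped, and the log2 fold change was 0.02 with a 95% interval of -0.06 to 0.10 (adjusted p = 0.755, edgeR's quasi-likelihood test). A change of 0.5 in either direction lies outside this interval. MMP15 (chr16:58025754-58046901, plus strand), or MT2-MMP, a related membrane protease, was at 103, 109 and 95.7 CPM in A431CT and 130, 136 and 121 CPM in Dsg2KO libraries. All Dsg2KO libraries were above all A431CT libraries, and the log2 fold change was 0.33 (standard error 0.06, 95% interval 0.22 to 0.45, adjusted p = 3.49e-04, edgeR), a level 26.0% higher. The adjusted p-value passed, but the change stayed under the fold minimum of 0.5, so MMP15 was not called. It kept an adjusted p-value under 0.05 with each of the 6 libraries left out, with log2 fold changes from 0.29 to 0.38. There were 2.70 ± 0.215 MMP14 counts per MMP15 count (SD, n = 3) in A431CT and 2.17 ± 0.129 in Dsg2KO cells.

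The bases upstream of these membrane proteases, from RefSeq's GRCh38.p14 annotation, are shown because MMP15 passed the adjusted p-value and MMP14, of the same class, did not. The difference between their changes was not tested. Each run holds the 250 bases before the annotated start on the plus strand, with GC boxes (GGGCGG or its reverse complement CCGCCC, searched on both strands) in capitals.
MMP14, chr14:22836335-22836584: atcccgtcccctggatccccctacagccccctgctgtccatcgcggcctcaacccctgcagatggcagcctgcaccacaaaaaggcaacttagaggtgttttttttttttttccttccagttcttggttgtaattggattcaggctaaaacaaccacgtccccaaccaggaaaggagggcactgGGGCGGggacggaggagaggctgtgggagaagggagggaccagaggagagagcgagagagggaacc
MMP15, chr16:58025504-58025753: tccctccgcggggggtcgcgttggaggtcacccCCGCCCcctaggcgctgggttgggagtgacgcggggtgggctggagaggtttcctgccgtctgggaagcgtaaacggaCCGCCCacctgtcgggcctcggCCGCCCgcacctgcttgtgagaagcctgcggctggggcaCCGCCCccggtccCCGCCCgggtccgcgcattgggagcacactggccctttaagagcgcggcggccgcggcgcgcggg
The MMP14 window held 1 GC box and 56.8% G or C, with 7 CpG dinucleotides. Its end overlaps the MMP14 span given above, since the RefSeq start lies downstream of the start of that span. The MMP15 window held 5 GC boxes, 31 CpG dinucleotides and 74.8% G or C. Of 35116 RefSeq promoters of the same length 42.6% held at least 1 GC box and 4.15% held 5 or more. TIMP3, whose level was 143 ± 15.6 CPM in A431CT and 148 ± 3.98 CPM in Dsg2KO cells, also had 5. The promoter table matched 6 of the 10 members. TIMP2, MMP1, MMP3 and MMP9 were not among them.

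TIMP2 had the lowest adjusted p-value of the members. It was at 156, 154 and 156 CPM in the A431CT libraries and 241, 240 and 242 CPM in the Dsg2KO libraries. The gap between the conditions was far wider than the spread within either, with means of 155 ± 1.04 and 241 ± 0.822 CPM (SD, n = 3). The log2 fold change was 0.63 (standard error 0.04, 95% interval 0.55 to 0.71, adjusted p = 1.98e-08, edgeR's quasi-likelihood test), 1.55-fold higher in 3 of 3 Dsg2KO libraries, and TIMP2 ranked 22 by p-value among all genes tested. With each of the 6 libraries left out in turn the log2 fold change stayed between 0.63 and 0.64. TIMP2 lies on chromosome 17 (chr17:78852977-78925387, minus strand, GRCh38). Among the 50 tested genes around it, the next 25 with a position on each side, 3 were called, and the median of their log2 fold changes was -0.06. CEP295NL, annotated inside TIMP2 on the same strand, had no count in any library.

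The other inhibitors did not pass the test. TIMP1, a broad MMP inhibitor that also inhibits ADAM10, was at 63.9, 57.1 and 62.9 CPM in A431CT and 59.7, 64.5 and 61.5 CPM in Dsg2KO libraries, with overlapping ranges. Its log2 fold change was 0.02 with a 95% interval of -0.11 to 0.14 (adjusted p = 0.871, edgeR). TIMP3, the matrix-bound inhibitor of MMPs and ADAM17, was at 161, 137 and 132 CPM in A431CT and 151, 149 and 144 CPM in Dsg2KO libraries. The first A431CT library was above every Dsg2KO library and the other two were below, and the log2 fold change was 0.05 with a 95% interval of -0.08 to 0.18 (adjusted p = 0.590, edgeR). Without that library the log2 fold change of TIMP3 was 0.14 (adjusted p = 0.0508, edgeR), still short of the threshold. TIMP1 (chrX:47582408-47586789) and TIMP3 (chr22:32801705-32863041) lie on the plus strand within the spans of SYN1 and SYN3 on the other strand, which had 6 to 34 and 8 to 23 counts per library, few beside the counts of the TIMPs. TIMP4 had 7 to 16 counts per library and a log2 fold change of -0.15 (adjusted p = 0.835, edgeR).

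The make-up of the inhibitor counts shifted accordingly. These counts are not scaled for transcript length, so their shares are not shares of transcript molecules. Per kilobase of the canonical transcript TIMP1 was the highest of the 3, at 79.7 CPM in A431CT and 80.5 CPM in Dsg2KO cells. TIMP2 was at 42.5 and 66.0 and TIMP3 at 31.1 and 32.2. The summed level of TIMP1, TIMP2 and TIMP3 was 360 ± 18.3 CPM (SD, n = 3) in A431CT and 451 ± 3.49 CPM in Dsg2KO cells. TIMP2 took 43.3 ± 1.96% of the summed counts in A431CT and 53.4 ± 0.597% in Dsg2KO cells. The share of TIMP1 was 17.0 ± 0.805% and 13.7 ± 0.498%, and that of TIMP3 was 39.7 ± 2.35% and 32.8 ± 0.684%. The MMP14 counts per TIMP2 count were 1.74, 1.78 and 1.80 in A431CT and 1.22, 1.14 and 1.12 in Dsg2KO cells. The ratio was lower in 3 of 3 Dsg2KO libraries, while the MMP14 level itself did not pass the test. These sums and ratios are given as descriptions without a test, because their members were chosen with results known.

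**Figure D3:**
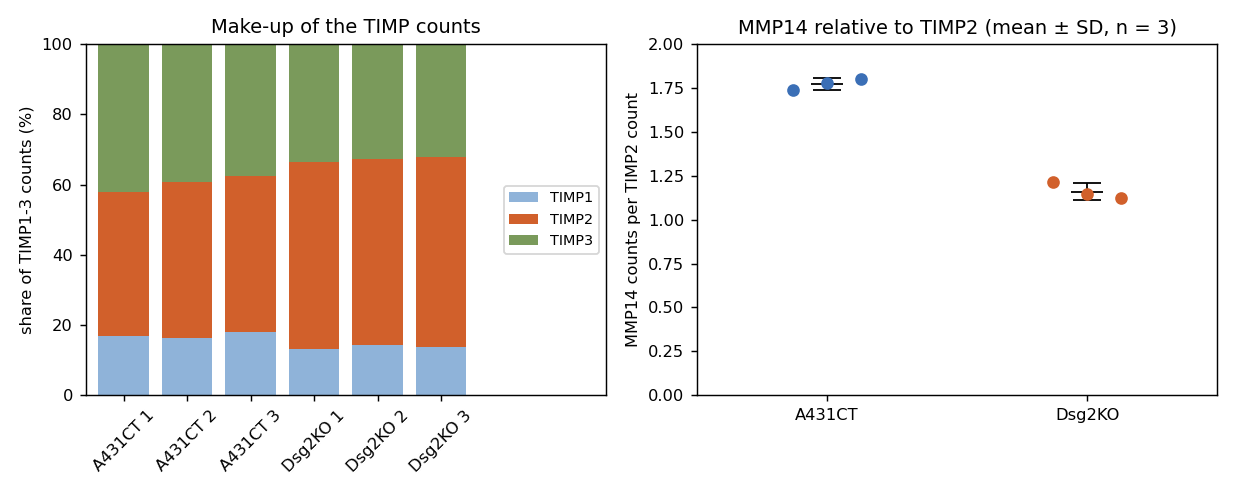
Left, the share of TIMP1, TIMP2 and TIMP3 in their summed counts (percent) in each library; right, MMP14 counts per TIMP2 count in each library with the mean ± SD (n = 3). The TIMP2 share is above 50% in the Dsg2KO libraries and below 45% in the A431CT libraries, and the MMP14 ratio lies near 1.16 in Dsg2KO and 1.77 in A431CT libraries.

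The sheddases differed little between the conditions, and neither was called. ADAM10 (chr15:58588809-58749791, minus strand), which releases E-cadherin, Notch and several EGF receptor ligands, was at 281, 287 and 270 CPM in A431CT and 292, 287 and 322 CPM in Dsg2KO libraries. All Dsg2KO libraries were above all A431CT libraries, but the second library of each condition nearly met, at 287 CPM, and the third Dsg2KO library stood highest. The log2 fold change was 0.11 with a 95% interval of 0.01 to 0.20 (adjusted p = 0.0963, edgeR), and without the third Dsg2KO library it was 0.05 (adjusted p = 0.395). ADAM17 (chr2:9488486-9556732, minus strand), which releases TNF, amphiregulin, TGF-α and HB-EGF, was at 33.7, 36.8 and 40.7 CPM in A431CT and 31.9, 32.9 and 31.6 CPM in Dsg2KO libraries. All Dsg2KO libraries were below all A431CT libraries, by a small margin, and the log2 fold change was -0.20 (standard error 0.07, 95% interval -0.36 to -0.05, adjusted p = 0.0495, edgeR), a level 13.2% lower. That adjusted p-value lay at the threshold. With 1 library left out it was under 0.05 in 1 of 6 cases, and over all alternatives it was between 0.0219 and 0.216. Without the third A431CT library the log2 fold change was -0.13 (adjusted p = 0.216), and without the first A431CT library it was -0.27 (adjusted p = 0.0219). There were 7.59 ± 0.865 ADAM10 counts per ADAM17 count (SD, n = 3) in A431CT and 9.37 ± 0.752 in Dsg2KO cells. IAH1 overlaps ADAM17 on the opposite strand with 656 to 904 counts per library and a log2 fold change of 0.04. Whether the counting used strand was not given in the sources used here, and the part of IAH1 in the ADAM17 counts was not tested.

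**Figure D4:**
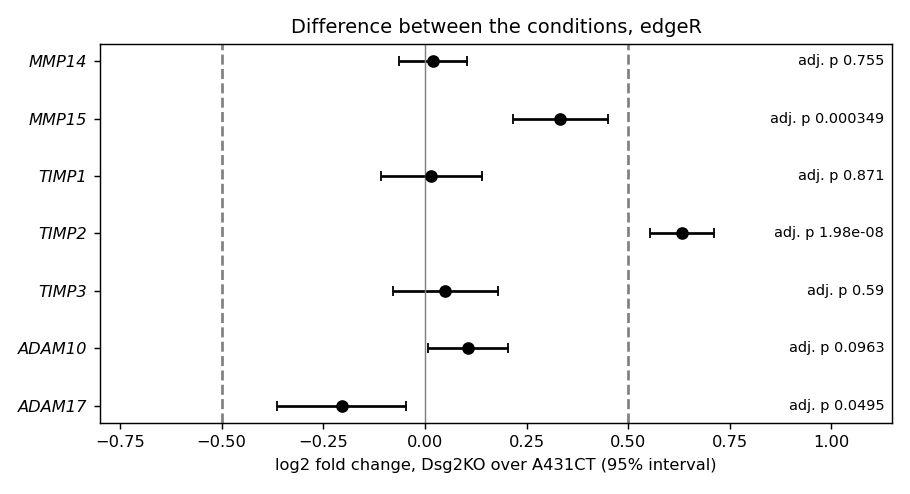
Log2 fold change (Dsg2KO over A431CT) of the 7 tested members with 95% intervals, dashed lines at the fold minimum of 0.5 in either direction, and the adjusted p-value from edgeR at the right. Only the interval of TIMP2 lies beyond a dashed line, the intervals of MMP15, ADAM10 and ADAM17 lie inside the lines but do not include 0, and the intervals of MMP14, TIMP1 and TIMP3 include 0.

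Levels were compared between genes per kilobase of the canonical transcript in GENCODE version 44, since longer transcripts gather more counts. On this scale TIMP1, with a transcript of 769 bases, and MMP14 were highest in A431CT cells, at 79.7 ± 4.77 and 74.4 ± 1.29 CPM per kilobase (SD, n = 3), a difference close to their spread. TIMP2 followed at 42.5 ± 0.284 and TIMP3 at 31.1 ± 3.39. MMP15 at 25.2 ± 1.64 and ADAM10 at 25.04 ± 0.779 did not differ beyond their spread. ADAM17 was at 8.44 ± 0.794, and MMP1, MMP9 and MMP3 were at 0.195, 0.0549 and 0.0144 CPM per kilobase. In Dsg2KO cells TIMP2 rose to 66.0 ± 0.225 CPM per kilobase and kept its place behind MMP14 at 75.5 ± 3.12. The order depends on the lengths used. Over all annotated exons, the A431CT level of MMP14 was 59.6, that of TIMP1 42.4, that of TIMP3 31.1 and that of TIMP2 25.03 CPM per kilobase. MMP15 and ADAM10 were then at 24.2 and 17.5. In Dsg2KO cells TIMP2 stood above TIMP3 on that scale, at 38.8 and 32.2 CPM per kilobase. The annotation used in the counting was not given in the sources used here.

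Genes that work with the members were read from 6 lists of other proteases, partners, substrates, transcription factors and locus neighbours. Of their 106 genes 68 were tested (median log2 fold change 0.08) and 7 were called, 4 higher and 3 lower in Dsg2KO cells, against 6.03% of all genes tested. One of the 7 was DSG2 itself, which is also a shed substrate and is the edited gene. The other lower genes, ADAMTS6 and L1CAM, passed the low-count filter only through the A431CT libraries, where they were higher. By the adjusted p-value alone 23 were higher and 6 lower, together 29 of 68, against 29.6% of all genes tested.

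Among the other MMPs and TIMP4, 4 of 19 genes were tested and none was called. The highest was MMP25, a membrane-anchored MMP of leukocytes, at 5.91 ± 1.14 CPM (SD, n = 3) in A431CT and 7.19 ± 1.37 CPM in Dsg2KO cells (adjusted p = 0.305, edgeR). MMP19 was at 3.19 and 3.76 CPM. MMP2, the gelatinase whose proenzyme MMP14 and TIMP2 activate, had 2, 5 and 8 counts in A431CT and 1, 3 and 13 counts in Dsg2KO libraries and was not tested. The 15 genes that were not tested included 5 with no count, and none of the 15 exceeded 13 counts in any library. MMP17 had 6, 8 and 3 counts in A431CT and 0 in every Dsg2KO library, and MMP13 had 6, 2 and 2 counts against 0. MMP12 lay the other way, with 1, 3 and 1 counts in A431CT and 4, 5 and 5 counts in Dsg2KO libraries. These 3 were named after their values were seen, as the untested genes of the list whose libraries did not overlap, and all are too low to judge.

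Of the other ADAM and ADAMTS proteases 9 of 23 were tested. Called were 1 as higher and 1 as lower, against 6.03% of all genes tested called in either direction. ADAMTS7, which degrades cartilage oligomeric matrix protein, was called as higher, from 14, 12 and 14 counts in A431CT to 55, 47 and 56 counts in Dsg2KO libraries, with a log2 fold change of 1.70 ± 0.28 (SE) and an adjusted p of 3.61e-04 by edgeR's quasi-likelihood test. ADAMTS6 was called as lower, from 12, 18 and 11 counts in A431CT to 3, 6 and 2 counts in Dsg2KO libraries. Its log2 fold change was -2.13 ± 0.52 (SE), with an adjusted p of 0.00598 by edgeR's quasi-likelihood test. ADAMTS6 passed the low-count filter only through the A431CT libraries, and it was not tested where at least 10 counts were required in every library. DESeq2 gave no adjusted p-value for ADAMTS6. By the adjusted p-value alone ADAMTS12, ADAM15 and ADAM9 were also higher, with log2 fold changes of 0.45, 0.23 and 0.11, and at 47.1 ± 1.62, 115 ± 1.16 and 156 ± 1.85 CPM in A431CT they were far more abundant than the called genes.

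Of 18 partners and activators 16 were tested and 2 were called, both higher, against 2.99% of all genes tested called as higher. PCSK6, or PACE4, a furin-like convertase that removes prodomains, was at 39.4, 35.8 and 36.1 CPM in A431CT and 52.2, 51.8 and 56.7 CPM in Dsg2KO libraries, with a log2 fold change of 0.53 ± 0.06 (SE) and an adjusted p of 2.11e-05 by edgeR's quasi-likelihood test. Without the third Dsg2KO library it was 0.49 and no longer passed the fold minimum. TSPAN33, a tetraspanin that guides ADAM10 traffic, was at 3.85, 5.82 and 5.89 CPM in A431CT and 9.25, 8.44 and 9.08 CPM in Dsg2KO libraries, with a log2 fold change of 0.78 ± 0.17 (SE) and an adjusted p of 0.00346 by edgeR's quasi-likelihood test. FURIN, PCSK7, TSPAN17 and CD44 were higher by the adjusted p-value alone, with log2 fold changes of 0.18, 0.26, 0.27 and 0.42. RHBDF2, or iRhom2, the cofactor of ADAM17 maturation, was at 40.5 and 41.1 CPM with a log2 fold change of 0.02 (adjusted p = 0.838), and RECK, a membrane-anchored MMP inhibitor, was at 8.29 and 7.72 CPM (adjusted p = 0.656). BSG, which encodes the MMP inducer basigin, was at 725 ± 21.8 and 700.3 ± 41.1 CPM with overlapping libraries.

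Of 26 shed substrates 21 were tested and 3 were called, against 6.03% of all genes tested. DSG2, the edited gene, was 1 of the 3. HBEGF, the heparin-binding ligand of the EGF receptor, had 193, 222 and 219 counts in A431CT and 354, 409 and 371 counts in Dsg2KO libraries (means of 16.2 and 23.9 CPM), with a log2 fold change of 0.56 ± 0.09 (SE) and an adjusted p of 1.61e-04 by edgeR's quasi-likelihood test. L1CAM, an adhesion molecule cleaved by ADAM10, had 30, 44 and 75 counts in A431CT and 2, 7 and 5 counts in Dsg2KO libraries. Its log2 fold change was -3.65 ± 0.46 (SE), with an adjusted p of 3.24e-05 by edgeR's quasi-likelihood test. L1CAM passed the low-count filter only through the A431CT libraries, and it was not tested where at least 10 counts were required in every library. SDC1, the most abundant of the list, was at 760 ± 11.2 CPM in A431CT and 795 ± 21.95 CPM in Dsg2KO cells and was not called. NOTCH2, a receptor cleaved by ADAM10, was at 416 ± 9.10 and 519 ± 5.20 CPM, with a log2 fold change of 0.32 that passed the adjusted p-value alone. TGFA, CDH1 (the gene of E-cadherin), PVR and MICB were likewise higher by the adjusted p-value alone, with log2 fold changes of 0.18, 0.28, 0.32 and 0.17. IL6R and ALCAM, the genes of the interleukin-6 receptor and of an adhesion molecule, were lower by the same rule, at -0.22 and -0.20. TNF, the substrate that gave ADAM17 its name, had 1 count in all.

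Of 14 AP-1, ETS and RUNX factors, families known to bind MMP promoters, 12 were tested and none was called. By the adjusted p-value alone 6 were higher and 1 was lower, against 29.6% of all genes tested in either direction. With only 12 genes nothing is read from these counts about the list. FOSL1, an AP-1 subunit, was at 138 ± 9.09 CPM (SD, n = 3) in A431CT and 177 ± 10.4 CPM in Dsg2KO cells, a log2 fold change of 0.36, and JUN had a log2 fold change of 0.28. ETV5 and RUNX1 had log2 fold changes of 0.45 and 0.39, ELF3 and ETS2 of 0.24 and 0.13, and JUND was the lower one at -0.16. FOSL2, at 205 ± 4.38 and 192 ± 3.37 CPM, did not pass.

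**Figure D5:**
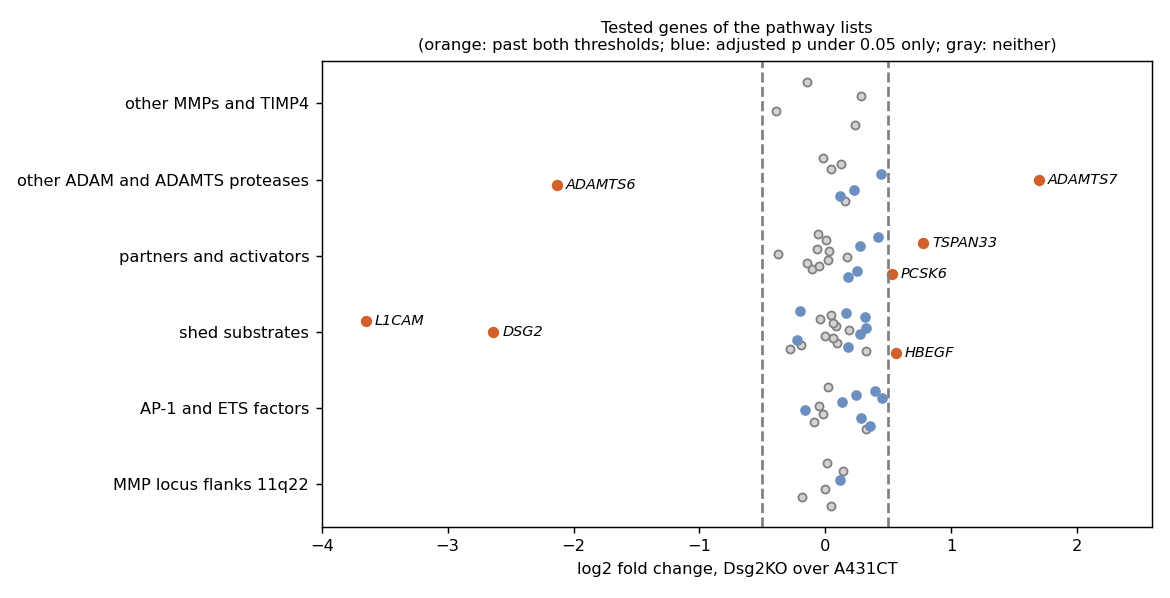
Log2 fold change (Dsg2KO over A431CT) of the tested genes in 6 lists of genes that work with the members, 1 point per gene, with dashed lines at the fold minimum of 0.5 in either direction. The 7 called genes are named, 4 to the right and 3 to the left, and no gene of the other MMPs, of the transcription factors or of the locus flanks is beyond the lines and called.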

How the data were processed

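PolyA RNA of A431CT and Dsg2KO cells was sequenced in paired ends (3 libraries each). The deposited values are raw counts per gene, which the authors made in CLC Genomics Workbench (version 23) from trimmed reads aligned to GRCh38. Counts were tested over the whole table in R 4.3.3 with edgeR 4.0.16: TMM scaling, filterByExpr (minimum count of 10, minimum total count of 15), a quasi-likelihood test with no covariates, and Benjamini-Hochberg adjustment over all genes tested. Standard errors were derived from the log2 fold change and its F statistic. The study describes the libraries as biological replicates without saying, here or in the labels, whether they were separate cultures. The p-values thus measure only the spread between these libraries. Between replicates the variance was 2.66 to 4.20 times that of counting error (chi-square per degree of freedom). Positions and lengths came from GENCODE version 44 (GRCh38), which placed 19478 symbols on the chromosome the table gives. Alternatives were RLE factors, total counts, other filters, DESeq2 1.42.0, the likelihood ratio test, libraries left out, a replicate block and other fold minimums. Members and lists were chosen with earlier results of these data known. The genes named are all members, DSG2, the called genes of the pathway lists and otherwise the 2 most abundant of each, with further genes, markers included, named after their values were seen. Intervals and floors of summed counts cover counting error only.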

Additional observations from a re-analysis of the deposited data

How the results depend on the processing

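In all 13 alternatives that kept the fold minimum of 0.5, TIMP2 was the 1 member called. Without a fold minimum 3 members passed. A log2 minimum of 1 left 0 members, since TIMP2 lies at 0.63. The same minimums gave 3802 and 250 genes in all, against 775, and 29 and 4 genes of the pathway lists, against 7. These differences follow from the minimum itself. With 1 library left out between 686 and 795 genes passed in all and between 7 and 8 of the pathway lists. Across the other fits with that minimum the counts were between 659 (DESeq2) and 916 (no low-count filter) in all. For the pathway lists they were between 5 (at least 10 counts in every library, where ADAMTS6 and L1CAM were not tested) and 10 (no low-count filter). With 1 library left out DSG2 had log2 fold changes from -2.68 to -2.61. The sign of the smallest log2 fold changes was not stable when a library was left out: MMP14 ranged from -0.0126 (without Dsg2KO replicate 1) to 0.0413, TIMP1 from -0.0333 (without A431CT replicate 2, and also below 0 without Dsg2KO replicate 2) to 0.0467, and TIMP3 from -0.0056 (without A431CT replicate 3) to 0.142. None of these had an adjusted p-value under 0.05. ADAM10 reached an adjusted p-value of 0.0457 with total counts only and 0.0459 without the low-count filter, and ADAM17 kept an adjusted p-value under 0.05 in 3 of 7 other fits, losing it with RLE factors (0.0519), total counts (0.0774), no low-count filter (0.0555) and DESeq2 (0.111). Libraries of the same replicate number had residual correlations between -0.0027 and 0.0539 over all genes tested. Counting noise lowers such correlations, so they cannot settle whether the numbers pair the libraries. The replicate block gave 769 genes in all, 1 member and 7 pathway genes. Depth limits MMP1, MMP3 and MMP9, which had at most 8 counts per library.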
